A study of Homo sapiens with 4 samples.

Results

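Nuclear receptors are transcription factors that bind DNA through a zinc finger domain and, in many cases, switch between repression and activation when a small lipophilic ligand binds. The data described here concern 44 human nuclear receptor genes: 5 steroid receptors, 8 retinoid, thyroid or vitamin D receptors, 10 metabolic receptors and 21 orphan receptors, out of 20098 protein-coding genes. The genes were taken by name, and every 1000-bp genomic tile (hg19) that overlapped the gene's span in the annotation, extended by 5 kb on each side, was assigned to the gene. Of 72455 different tiles in the deposited tables, 239 lay in these windows, and 41 of the 44 genes had at least 1. NR0B2, NR1I3 and NR2C1 had none.

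DNA methylation had been measured by reduced representation bisulfite sequencing (RRBS) in clones of SKOV3, a human line of ovarian cancer cells that look mesenchymal, to ask which regions change when the antigen receptor LY75 is lost and the cells turn epithelial. On the mesenchymal (M) side stood shC-S, with its control shRNA, and LY75-R-S, in which LY75 was overexpressed on top of the LY75 suppression shRNA. On the epithelial (E) side stood sh-LY75-S, which carried the LY75 shRNA, and LY75-KO-S, in which LY75 was suppressed with CRISPR. There were 4 libraries, 1 for each clone, all from genomic DNA of cultured cells. Each clone is thus a single library with no replicate, LY75-R-S and LY75-KO-S differ in the shRNA as well as in LY75, LY75-R-S stems from the knockdown cells themselves, and a difference between M and E cannot be told apart from a difference between clones.

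The authors deposited 3 tables, 1 for each SKOV3-M vs. SKOV3-E combination: the mix of all 4 libraries, the comparison shC-S vs. sh-LY75-S, called knockdown below, and a knockout comparison (LY75-R-S vs. LY75-KO-S). Each lists only tiles that differed by at least 25 percentage points of methylation at a q-value below 0.01, and they hold 51243 tiles for the knockdown comparison, 28282 for the knockout comparison and 20986 for the mix. The tables give a difference for each tile but no methylation level for a library and no read number, so the values in single samples cannot be shown, the depth behind a value is unknown, and no difference could be tested against the spread between replicates. Neither LY75 nor the identity of the cells could be checked in them, as they hold no expression values. A tile that is missing from a table may have been unchanged, changed by less than 25 points, or not covered. A positive difference means hypermethylated in SKOV3-E, and "hypermethylated" and "hypomethylated" are used below in this sense only.

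The order of subtraction was read from 10 genes whose direction is stated in the study. Their largest promoter tiles had the stated sign in 10 of 10 genes in the knockdown comparison, 3 of 4 in the knockout comparison and 7 of 7 in the mix. Over 4250 tiles listed in every table, a least-squares fit of the mix gave coefficients of 0.534 for the knockdown and 0.435 for the knockout comparison, and 0.534 and 0.434 over the 4236 tiles outside the receptor genes. Both coefficients were positive, as E minus M in every table would give. A turned knockout table would have a negative coefficient. The name of the knockout table puts the knockout before the rescue clone, and if it had been subtracted in that order every sign of this comparison given below would turn.

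Cytosine methylation in vertebrates sits mainly at CpG dinucleotides. CpG-rich promoters are usually unmethylated, dense methylation of such a promoter goes with silencing, and methylation in gene bodies is common in expressed genes. Many receptor genes, among them RARA, ESRRG, HNF4A and VDR, have several promoters that give transcripts with different first exons, so a tile can change at an internal start site and not at the outermost one. RRBS reads begin at CCGG sites, which the enzyme MspI cuts, and therefore sample CpG-rich sequence best.

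Several of the largest promoter differences lay directly over an annotated transcription start site (TSS). The 120 bases upstream of such sites are shown for 7 receptors, since these are the sequences in which hypermethylation or hypomethylation would meet the start of a transcript. They were read from the GRCh37 reference (the build called hg19 in the tables) on the strand of the gene, and CG dinucleotides are in capitals. In the knockdown comparison the first 4 genes were hypermethylated and RARA was hypomethylated in the tile around the start. From the same comparison, ESRRG is given as a promoter with neighbouring tiles of opposite sign. RORA is given as a CpG-rich promoter that was hypomethylated there, in a gene whose body was mainly hypermethylated. The knockout comparison listed none of the tiles around these starts.
HNF4A: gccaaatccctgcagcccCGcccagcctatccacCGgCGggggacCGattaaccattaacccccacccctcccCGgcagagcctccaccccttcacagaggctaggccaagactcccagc
NR2E3: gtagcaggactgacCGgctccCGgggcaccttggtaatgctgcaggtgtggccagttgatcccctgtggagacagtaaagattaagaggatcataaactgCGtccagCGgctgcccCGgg
RXRA: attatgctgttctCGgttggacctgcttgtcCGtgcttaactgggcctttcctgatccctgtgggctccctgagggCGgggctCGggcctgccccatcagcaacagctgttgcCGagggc
VDR: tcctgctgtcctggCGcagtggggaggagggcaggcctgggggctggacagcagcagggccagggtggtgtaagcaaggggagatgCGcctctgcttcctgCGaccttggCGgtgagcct
RARA: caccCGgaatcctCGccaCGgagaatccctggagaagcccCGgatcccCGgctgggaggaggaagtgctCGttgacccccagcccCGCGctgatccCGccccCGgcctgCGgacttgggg
ESRRG: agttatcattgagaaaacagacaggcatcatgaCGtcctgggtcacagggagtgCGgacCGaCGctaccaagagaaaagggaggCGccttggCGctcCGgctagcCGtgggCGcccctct
RORA: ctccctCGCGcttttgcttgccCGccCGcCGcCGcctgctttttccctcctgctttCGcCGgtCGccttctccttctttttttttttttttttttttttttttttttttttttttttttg

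These windows were chr20:43029759-43029878 for HNF4A, chr15:72102774-72102893 for NR2E3, chr9:137271021-137271140 for RXRA, chr12:48336832-48336951 for VDR (minus strand), chr17:38498495-38498614 for RARA, chr1:217263149-217263268 for ESRRG (minus strand) and chr15:61521502-61521621 for RORA (minus strand). The RARA window held 11 CpGs and 4 CCGG sites in its 120 bases. ESRRG and RORA had 9 CpGs each, HNF4A, NR2E3 and RXRA 5 each, and VDR 4. No CCGG site lay in the RXRA or VDR window, so no RRBS read could begin inside these stretches. In the RORA window, CpGs filled the distal part and a run of thymines the part next to the start.

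In the knockdown comparison 39 of the 44 receptor genes had a listed tile (88.6%), where 60.5% of all protein-coding genes had one. The knockout comparison listed 29 (65.9%, against 46.9% of all genes) and the mix 27 (61.4%, against 38.4%). Receptor windows were larger than most: the median window held 16 tiles that MspI fragments can reach, and that of all protein-coding genes 10. Per reachable tile, 16.8% of the receptor tiles were listed in the knockdown comparison against 11.8% over all gene windows, 7.41% against 6.17% in the knockout comparison and 5.45% against 4.89% in the mix. The reachable tiles are those with a CpG within 50 bases of the ends of MspI fragments of 40 to 220 bp.

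The direction of the receptor tiles was mixed. Of 179 tiles in the knockdown comparison, 96 were hypermethylated and 83 hypomethylated, a hypermethylated share of 53.6% (95% Wilson interval 46.3 to 60.8) where all gene windows gave 61.9%. The knockout comparison listed 42 hypermethylated and 41 hypomethylated tiles (50.6%, 40.1 to 61.1, against 55.3% over all gene windows). The mix listed 36 and 28 (56.3%, 44.1 to 67.7, against 62.2%). The knockdown interval ended just below the share over all gene windows and the other intervals included theirs. Such intervals cover counting only, and neighbouring tiles of a gene are not independent. In the knockdown comparison 11 genes had hypermethylated tiles alone, 9 hypomethylated tiles alone and 19 tiles of both signs.

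**Figure D1:**
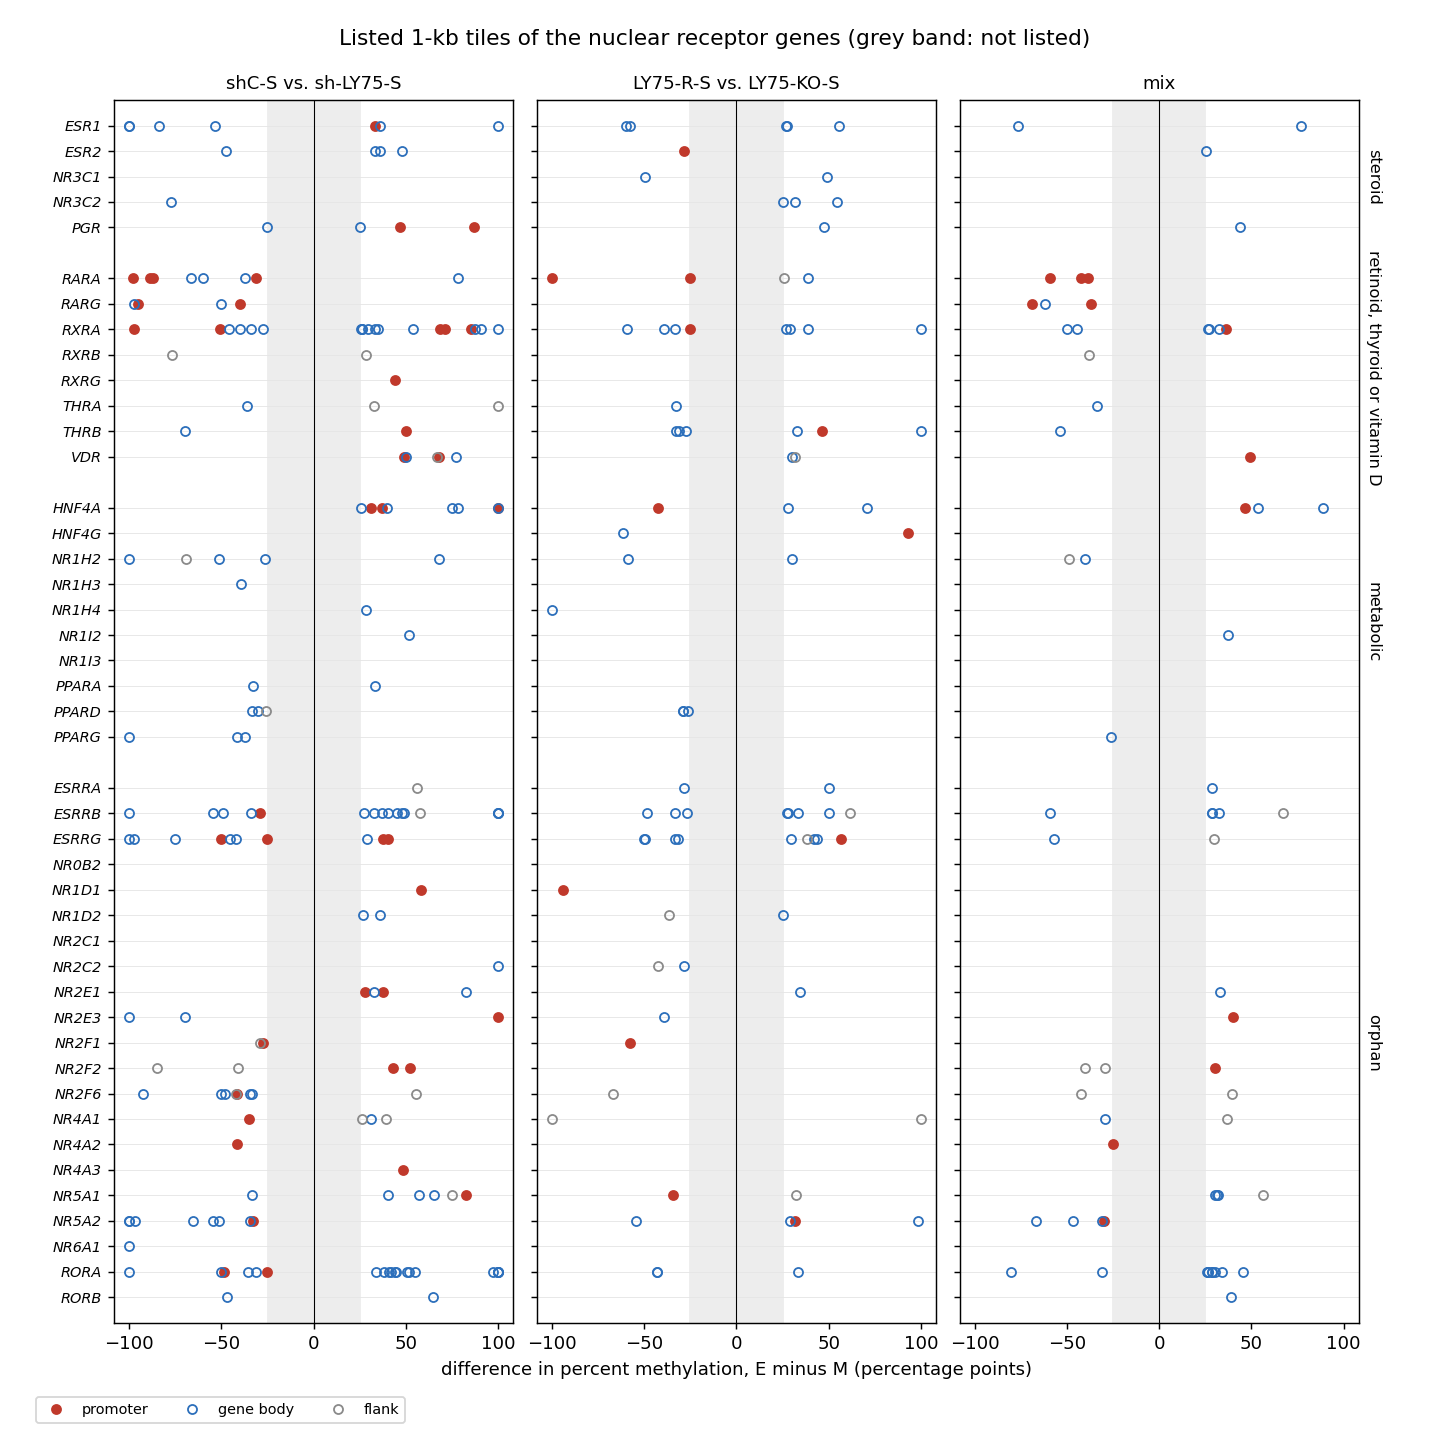
Each point is a listed 1-kb tile of a nuclear receptor gene (rows, grouped by receptor class), placed by its difference in percent methylation, E minus M, in percentage points, with 1 panel for each comparison. Filled red points lie within 2 kb of a TSS, open blue points in the gene body and open grey points in the 5-kb flanks. The grey band marks differences under 25 points, which the tables do not list. In the knockdown panel VDR and HNF4A lie wholly to the right, RARG and NR5A2 wholly to the left, and RXRA, ESRRB and RORA on both sides.

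Promoter tiles, those within 2 kb of a TSS, were listed for 23 receptor genes in the knockdown comparison (52.3%, against 29.9% of all protein-coding genes), for 11 in the knockout comparison (25%, against 14.1%) and for 9 in the mix (20.5%, against 15.0%). Per reachable promoter tile, 19.7% of the receptor tiles were listed in the knockdown comparison against 15.1% over all genes. These shares were 5.42% against 5.39% in the knockout comparison and 5.42% against 6.46% in the mix. The largest promoter tile was hypermethylated in 12 of the 23 genes in the knockdown comparison, 4 of the 11 in the knockout comparison and 5 of the 9 in the mix, where 55.1%, 52.9% and 55.5% of all genes with a promoter tile were hypermethylated. By tile, 23 of 41 promoter tiles and 63 of 121 gene body tiles were hypermethylated in the knockdown comparison, or 56.1% and 52.1%. Over all genes these shares were 55.6% and 64.2%. In the knockout comparison 4 of 12 promoter tiles (33.3%) and 32 of 61 gene body tiles (52.5%) were hypermethylated, against 53.3% and 55.8% over all genes. In the mix the numbers were 5 of 12 (41.7%) and 26 of 42 (61.9%), against 55.3% and 65.0%. The median absolute difference in the knockdown comparison was 48.3 points in promoters and 49.3 points in gene bodies. Over all genes it was 50.0 points in each. Differences of 100 points run from no methylated read to no unmethylated read, or the reverse. They made up 22 of the 121 gene body tiles (18.2%) and 2 of the 41 promoter tiles (4.88%). Over all genes these shares were 13.8% and 8.52%, so gene bodies had the larger share there too. Few reads can be enough to give such a value.

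**Figure D2:**
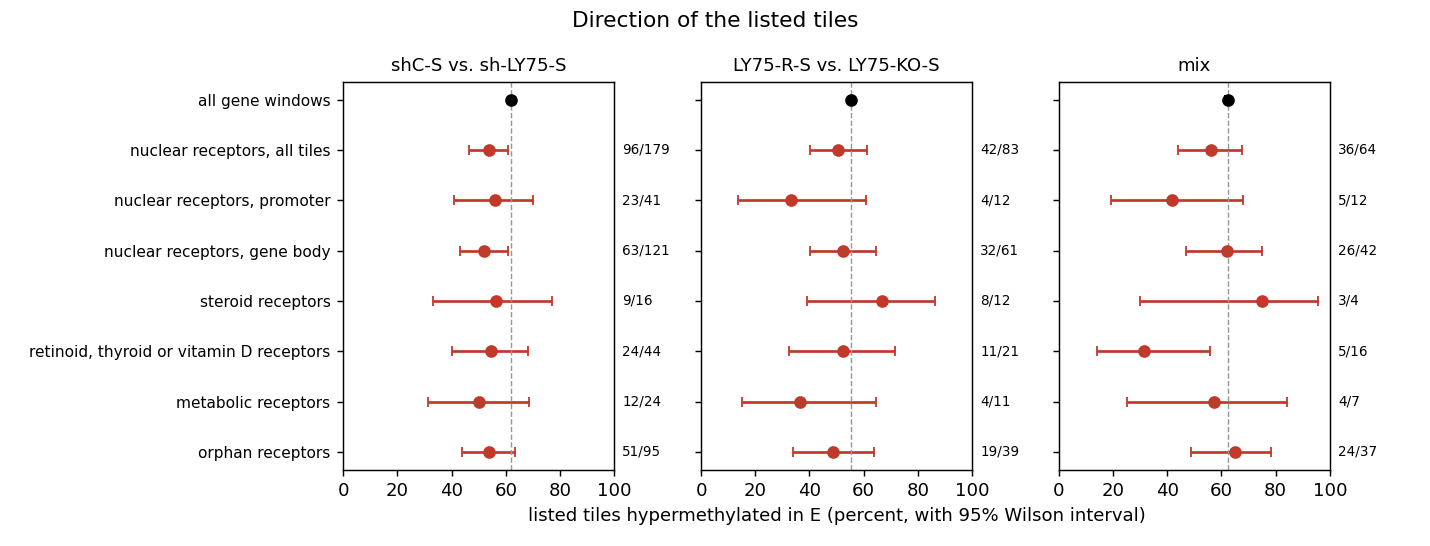
The horizontal axis gives the share of listed tiles that were hypermethylated in E, in percent, with a 95% Wilson interval, for all protein-coding gene windows (black) and for the receptor tiles by position and class (red), with 1 panel for each comparison. The numbers at the right are hypermethylated tiles over listed tiles, and the dashed line is the share over all gene windows. The retinoid, thyroid or vitamin D receptors in the mix, with 5 of 16, and all receptors in the knockdown comparison, with 96 of 179, and in gene bodies there, with 63 of 121, are the sets whose interval lies below the line.

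The steroid receptors bind oestrogen, progesterone, glucocorticoids or mineralocorticoids. As a class they had 9 hypermethylated tiles of 16 in the knockdown comparison, 8 of 12 in the knockout comparison and 3 of 4 in the mix. All 3 of their promoter tiles in the knockdown comparison were hypermethylated, and the only one in the knockout comparison, in ESR2, was not. PGR, the progesterone receptor and a classical target of the oestrogen receptor, was hypermethylated by 86.9 points in the tile chr11:100998001-100999000, an exonic tile with 120 CpGs that lies 801 bp inside the gene from the nearest TSS. The tile next to it, chr11:100999001-101000000 with 67 CpGs and a TSS, was hypermethylated by 46.8 points. Neither was listed in the knockout comparison or in the mix. Among promoter tiles of the receptors, the PGR tile with 120 CpGs was the most CpG-dense.

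ESR1, oestrogen receptor alpha, spans 472929 bp and had 11 listed tiles. Its promoter tile chr6:152129001-152130000, which holds 88 CpGs and starts 184 bp from the TSS, was hypermethylated by 33.4 points in the knockdown comparison and was listed in no other table. In the gene body the signs were split, with values from -100 to 100 points. The intronic tile chr6:152441001-152442000 near the end of the gene was hypomethylated, with -83.6, -59.8 and -76.2 points in the knockdown comparison, the knockout comparison and the mix. ESR2, oestrogen receptor beta, had a promoter tile only in the knockout comparison, at -28.2 points in chr14:64760001-64761000. In the knockdown comparison 3 of its 4 tiles were hypermethylated, between 33.3 and 47.8 points, and all lay in introns. The tile at 35.9 points was within 2 kb of a TSS of SYNE2.

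The corticosteroid receptors carried few tiles and none in a promoter, although 4 promoter tiles of each were in reach of MspI fragments. NR3C1, the glucocorticoid receptor, was absent from the knockdown table and the mix, and its 2 intronic tiles in the knockout comparison had values of 49.1 and -49.3 points. NR3C2, the mineralocorticoid receptor, had a tile at -77.6 points in the knockdown comparison and 3 tiles between 25.1 and 54.5 points in the knockout comparison, all in different places of its long gene.

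Retinoic acid, thyroid hormone and vitamin D receptors bind DNA mostly as heterodimers with a retinoid X receptor (RXR). Of this class every gene had a listed tile in the knockdown comparison. A promoter tile was listed for 6 of 8, where 29.9% of all protein-coding genes had one. The number of reachable promoter tiles differs between genes, and the share per reachable tile was not computed by class. The class held 24 hypermethylated tiles of 44 in the knockdown comparison, 11 of 21 in the knockout comparison and 5 of 16 in the mix (31.3%, Wilson interval 14.2 to 55.6). In the knockdown comparison its 15 promoter tiles, 9 of them from RARA and RXRA, had a median absolute difference of 68.5 points, against 46.8 over the 3 steroid, 36.8 over the 3 metabolic and 40.9 over the 20 orphan promoter tiles. This order did not hold in the knockout comparison, with 35.7 points over 4 tiles of the class, 67.9 over 2 metabolic and 56.6 over 5 orphan tiles. Over the promoter tiles of all genes the median was 50.0 points in the knockdown and 39.1 in the knockout comparison. Medians over so few tiles rank the classes only loosely. Behind the mixed class total stood genes that differed from each other: in the knockdown comparison 11 of the 12 tiles of the retinoic acid receptors were hypomethylated and all 5 tiles of the vitamin D receptor hypermethylated, and RXRA had both signs.

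RARA, retinoic acid receptor alpha, was hypomethylated in 7 of its 8 tiles in the knockdown comparison. A run of 3 neighbouring tiles at an internal promoter, chr17:38497001-38500000, differed by -87.0, -97.9 and -88.7 points. They hold 51, 82 and 24 CpGs and include the TSS whose upstream sequence is printed above, in a tile centred 33.1 kb downstream of the outermost start. In the mix the outer tiles of this run stood at -59.4 and -42.2 points, and the knockout comparison listed none of them. At the outermost TSS of RARA the tile chr17:38465001-38466000 was hypomethylated in every table, with -31.5 points in the knockdown comparison, -25.3 in the knockout comparison and -38.4 in the mix. It was the only receptor promoter tile listed in all of them. The knockout comparison had a further promoter tile at -100 points, chr17:38476001-38477000, 1464 bp from a TSS, and its other RARA tiles stood at 38.7 points in the gene body and 25.7 in the flank.

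RARG, retinoic acid receptor gamma, was hypomethylated in all 4 of its tiles in the knockdown comparison and in all 3 in the mix, and had none in the knockout comparison. The promoter tile chr12:53613001-53614000 with 56 CpGs differed by -95.1 points in the knockdown comparison and -69.0 in the mix, and the intronic tile chr12:53617001-53618000 by -97.6 and -61.6. The tile just upstream of the gene, chr12:53628001-53629000, gave -40.2 and -36.7 points. RARG and RARA supplied the largest hypomethylated promoter differences of the class in the mix.

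RXRA, the common dimer partner of the class, had the most tiles of all receptors, 26, in a window of 104 reachable tiles. In the knockdown comparison 13 of 19 were hypermethylated and the signs alternated along the gene. The promoter tiles next to the canonical TSS, chr9:137219001-137220000 and chr9:137220001-137221000, differed by -50.6 and -97.3 points. At the internal TSS, 3 neighbouring tiles from chr9:137270001 to 137273000 were hypermethylated by 85.4, 70.8 and 68.5 points, and the upstream sequence printed above belongs to the middle one. Further tiles at 87.3, 100 and 90.6 points followed in the body, with others at -27.7 and -39.7 points. The knockout comparison listed only 1 of these promoter tiles, chr9:137270001-137271000, and with the opposite sign at -25.1 points. RXRB had no promoter tile, and both of its tiles lay in the flanks within 2 kb of a TSS of another gene. RXRG was hypermethylated by 43.8 points over its TSS in the knockdown comparison, its only tile in any table.

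VDR, the vitamin D receptor, was hypermethylated in every tile of every table, which came to 5 in the knockdown comparison, 2 in the knockout comparison and 1 in the mix. Its canonical promoter tile, chr12:48299001-48300000 with 49 CpGs, differed by 68.0 points in the knockdown comparison and 49.4 in the mix. The tile over the upstream TSS, chr12:48336001-48337000, was hypermethylated by 48.8 points. The tiles of the knockout comparison, at 29.9 and 31.6 points, lay elsewhere in the gene and its flank, so no VDR tile was listed in both single comparisons.

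The thyroid hormone receptors THRA and THRB had tiles of both signs. THRB was the only receptor with the same promoter tile hypermethylated in both single comparisons, at 50.0 points in the knockdown and 46.1 in the knockout comparison for chr3:24535001-24536000, although this tile was absent from the mix. An intronic THRB tile, chr3:24424001-24425000, was hypomethylated, with -69.9, -32.6 and, in the mix, -53.5 points. THRA had an intronic tile at chr17:38232001-38233000 with -36.1, -32.5 and -33.5 points in the 3 tables, and its hypermethylated tiles lay upstream, within 2 kb of a TSS of MED24.

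**Figure D3:**
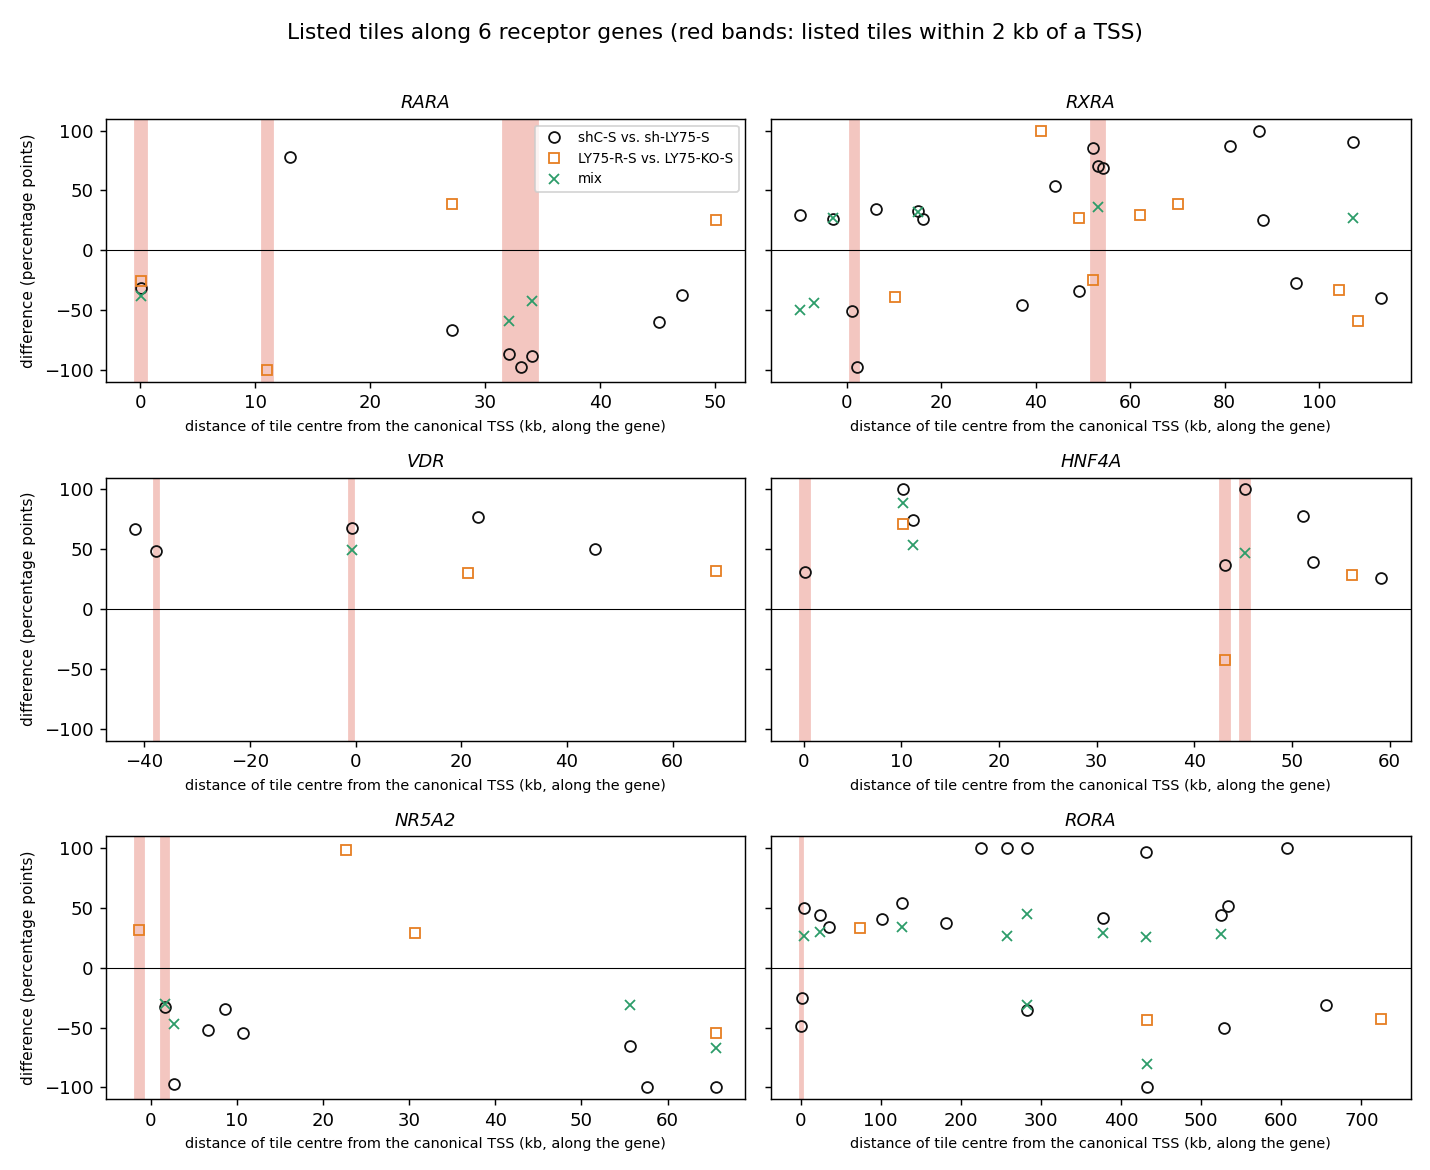
Listed tiles of RARA, RXRA, VDR, HNF4A, NR5A2 and RORA are placed by the distance of the tile's centre from the canonical TSS in kb, along the direction of the gene (horizontal axis), and by the difference in percentage points (vertical axis). Circles stand for the knockdown comparison, squares for the knockout comparison, crosses for the mix, and red bands for listed tiles within 2 kb of any TSS. RARA shows its run of 3 hypomethylated tiles between -87.0 and -97.9 points, RXRA promoter circles of opposite sign at its canonical and its internal start, and HNF4A and VDR no circle below 0.

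Metabolic receptors sense fatty acids, oxysterols, bile acids or foreign compounds. Only HNF4A among the 10 had a promoter tile in the knockdown comparison (10.0% of the class, against 29.9% of all protein-coding genes). In the knockout comparison only HNF4A and HNF4G had one (20.0%, against 14.1%). Of the class's tiles, 12 of 24 were hypermethylated in the knockdown comparison, 4 of 11 in the knockout comparison and 4 of 7 in the mix. HNF4A supplied 8 of the 12, and with VDR counted as a steroid receptor and the HNF4 genes as orphans the hypermethylated share of the class was 25% instead of 50%.

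HNF4A, a receptor of liver, gut and kidney epithelium, was hypermethylated in all 8 of its tiles in the knockdown comparison, from 25.7 to 100 points. The tile chr20:43029001-43030000, which holds the TSS of the internal promoter printed above, differed by 100 points in the knockdown comparison and 46.8 in the mix, and the tile over the outermost TSS, chr20:42984001-42985000, by 30.8 in the knockdown comparison. An intronic tile, chr20:42994001-42995000, was hypermethylated by 100, 70.8 and 88.9 points in the 3 tables, and its neighbour by 74.9 and 53.4 in the knockdown comparison and the mix. One promoter tile, chr20:43027001-43028000, had opposite signs in the single comparisons, with 36.8 and -42.7 points. HNF4G, its paralogue, had a promoter tile at 93.1 points and a gene body tile at -61.6 points in the knockout comparison and no tile elsewhere.

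The peroxisome proliferator-activated receptors had no promoter tile in any table. PPARG, the regulator of fat cell formation, was hypomethylated in its 3 intronic tiles of the knockdown comparison, at -37.3, -41.7 and -100 points. PPARD was hypomethylated in 3 tiles of the knockdown and 3 of the knockout comparison, none of them the same tile, and all within a narrow range of -25.97 to -33.4 points. PPARA had an intronic tile of each sign, at 33.3 and -32.9 points. NR1H2, the liver X receptor beta, had 6 tiles, but 4 of these lay within 2 kb of a TSS of another gene, and the gene's annotated span begins far upstream of its canonical start. NR1H3, NR1H4 and NR1I2, which bind oxysterols, bile acids and foreign compounds, had 1 or 2 gene body tiles each. The only NR1H3 tile lay within 2 kb of a TSS of MADD.

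The orphan receptors have no known natural ligand, or had none when they were named. They held 95 tiles in the knockdown comparison, of which 51 were hypermethylated, 39 in the knockout comparison with 19 and 37 in the mix with 24. Of the 21 genes, 14 had a promoter tile in the knockdown comparison (66.7%, against 29.9% of all protein-coding genes). In the knockout comparison 5 had one (23.8%, against 14.1%). Genes with more start sites have more promoter tiles that can be listed, and the share per reachable tile was not computed by class. For all receptors in the knockdown comparison that share was 19.7%, against 15.1% over all genes. The largest promoter tile was hypermethylated in 6 and hypomethylated in 8 of the 14.

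NR2E3, a receptor of rod photoreceptors, had the largest promoter difference of the class, 100 points over the canonical TSS in chr15:72102001-72103000 in the knockdown comparison and 40 in the mix, whereas its downstream exonic tiles stood at -69.8 and -100 points. NR2E1, a receptor of neural stem cells, was hypermethylated in all 4 tiles of the knockdown comparison, among them promoter tiles at 37.5 and 28.0 points. NR4A3 had a single tile, a promoter tile at 48.3 points, and NR4A1 and NR4A2, the other immediate early receptors of its group, had promoter tiles at -35.1 and -41.7 points.

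The COUP-TF genes NR2F1, NR2F2 and NR2F6, which code for regulators of organ development, differed. NR2F1 was hypomethylated over an internal TSS in both single comparisons, with -27.3 points in the knockdown and -57.6 in the knockout comparison (chr5:92923001-92924000). NR2F2 was hypermethylated in its promoter tiles, by 42.9 and 52.3 points, and hypomethylated in the flank upstream, with -85.1 and -41.1. NR2F6 was hypomethylated in 7 of 8 tiles, with -41.7 points in its promoter and -92.4 points in an exonic tile with 106 CpGs, chr19:17346001-17347000.

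NR5A1, the steroidogenic factor 1 of gonad and adrenal, and its paralogue NR5A2 moved apart in the knockdown comparison. NR5A1 was hypermethylated in 5 of 6 tiles, with 82.6 points in the promoter tile chr9:127268001-127269000, and in all 4 tiles of the mix. NR5A2 was hypomethylated in all 8 tiles, from -32.8 to -100 points, and in all 4 of the mix. In the knockout comparison, however, 3 of the 4 NR5A2 tiles were hypermethylated, including a promoter tile at 31.5 points, and the NR5A1 promoter tile stood at -34.5 points. The intronic tile chr1:200062001-200063000 of NR5A2 was hypomethylated in every table, with -100, -54.3 and -66.7 points.

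The orphan genes with most tiles were long, but not every long gene had many. NR6A1 had 1 tile in 254037 bp and RORB 2 in 195843 bp. RORA, which acts in circadian rhythm and the cerebellum, had 22 tiles across 741019 bp, ESRRB 20 and ESRRG 17, and with RXRA these genes held 85 of the 239 receptor tiles. RORA was hypomethylated in its promoter in the knockdown comparison, with -48.9 points over the TSS, in a tile with 85 CpGs, and -25.2 points 1501 bp away. In the same comparison 14 of its 20 tiles were hypermethylated, all in introns and 5 of them by 97.1 points or more, and 8 of the 10 tiles in the mix were hypermethylated. ESRRB, an oestrogen-related receptor of pluripotent cells, had 11 hypermethylated tiles of 16, and ESRRG 3 of 10 in the knockdown comparison. At the ESRRG start site printed above the tile with 56 CpGs was hypermethylated by 37.3 points, while its neighbours with 17 and 10 CpGs stood at -25.4 and -50.0 points.

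The single comparisons share no library, so tiles listed in both show where the clone pairs differed at the same place. Their clones are not unrelated, however: LY75-R-S, on the M side of the knockout comparison, was made from the LY75 shRNA cells that form the E side of the knockdown comparison, so a state peculiar to that lineage would enter them with opposite signs. There were 25 such receptor tiles in 16 genes, 14.0% of the tiles of the knockdown and 30.1% of those of the knockout comparison. Over all gene windows 4634 tiles were shared, of 30161 listed in the knockdown and 16448 in the knockout comparison. The sign was the same in 15 of them (60.0%, Wilson interval 40.7 to 76.6), and over all gene windows in 52.7% of 4634 shared tiles. Of the 15, 10 were hypomethylated and 5 hypermethylated in both. These counts rest on the order of subtraction in the knockout table: were it turned, 10 of the 25 would have the same sign (40%, Wilson interval 23.4 to 59.3, against 47.3% over all gene windows), 5 of them hypermethylated and 5 hypomethylated in both. The shared tiles with a difference of at least 50 points in both numbered 5, in ESR1, ESRRB, HNF4A, NR1D1 and NR5A2, and all but the NR1D1 tile had the same sign. Of the 7 shared promoter tiles only 3 had the same sign, those of RARA, THRB and NR2F1. The mix, which is made of the same libraries and adds no independent evidence, listed 13 of the 15 tiles with the same sign and 1 of the 10 with opposite signs.

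**Figure D4:**
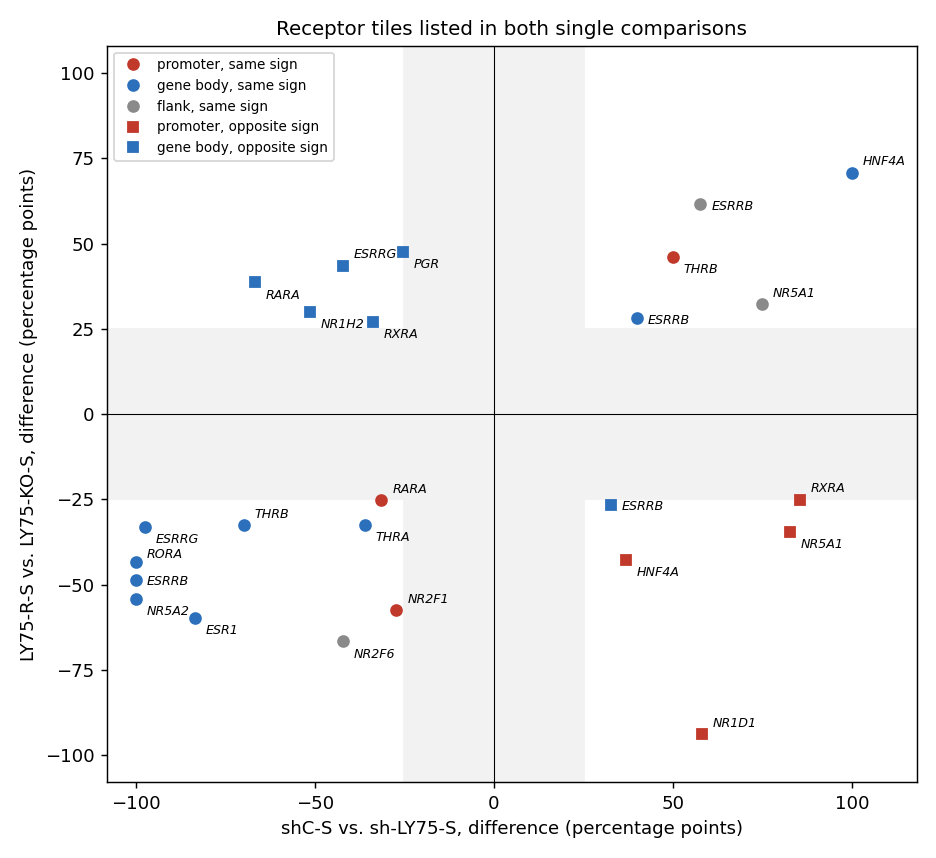
The 25 receptor tiles listed in both single comparisons are placed by their difference in the knockdown (horizontal axis) and the knockout comparison (vertical axis), in percentage points. Circles have the same sign in both, squares opposite signs, and colours give the position in the gene. The lower left, hypomethylated in both, holds 10 tiles and the upper right 5, with HNF4A at 100 and 70.8 points the farthest out on the hypermethylated side. NR1D1, with 58.2 and -93.8 points, has the widest gap between the comparisons.

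Genes that act with the receptors were counted in the same way. Both lists were chosen with earlier results of these data known, so their counts only describe the listed genes. Among 20 coregulators, the proteins that receptors recruit to activate or repress transcription, 3 had a promoter tile in the knockdown comparison (15.0%, against 29.9% of all protein-coding genes), among them PPARGC1B at -53.8 points and CARM1 at 58.3. In the knockout comparison 3 had one (15.0%, against 14.1% of all genes), among them NCOA6 at -30.7 and FOXA1 at 47.6 points. None did in the mix, where 15.0% of all genes had one. Among 21 enzymes and carriers of receptor ligands, 9 had a promoter tile in the knockdown comparison (42.9%, against 29.9% of all genes). Of these, 8 were hypomethylated in their largest one, where 55.1% of all genes with a promoter tile were hypermethylated. They included the retinoic acid hydroxylases CYP26A1 at -76.5 points, CYP26B1 at -43.1 and CYP26C1 at -26.96. Retinoic acid is made by the aldehyde dehydrogenases ALDH1A2, at -54.7 points, and ALDH1A3, at -42.7, and carried by CRABP2, at -51.4. The thyroid hormone deiodinase DIO3 stood at -63.2 points and the oestradiol-forming HSD17B1 at -56.0. SRD5A2, which makes dihydrotestosterone, was the exception at 84.1 points. In the mix 4 of the 21 had a promoter tile (19.0%, against 15.0% of all genes), all hypomethylated. In the knockout comparison 6 of the 21 had one (28.6%, against 14.1%), 3 of each sign, and CYP26A1 at -36.5, ALDH1A3 at -38.0 and HSD17B1 at -33.3 points had the sign of the knockdown comparison, whereas CRABP2, at 28.8 points, had the opposite one.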

How the data were processed

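RRBS libraries of 4 SKOV3 clones had been made with MspI and sequenced as single reads of 50 bp. Per the submitters' processing notes and the study's methods, reads were trimmed (Trim Galore 0.4.1), aligned to hg19 (Bismark 0.16.1) and compared in 1000-bp tiles with methylKit. The authors' deposited tables give a difference in percent methylation, a p-value and a q-value for each tile past their thresholds; the methods state an adjusted p-value below 0.05, and the largest q-values in the tables were 0.00982, 0.00986 and 0.0046. The minimum coverage and the treatment of the libraries in the mix are not given in the sources used here. The paper does not state whether the reads carried molecular identifiers. No clone had a replicate library, so p-values over reads say nothing about the spread between libraries of a clone.

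Genes and transcripts came from GENCODE release 44, placed on GRCh37. A tile was promoter if within 2 kb of the TSS of a basic protein-coding transcript, otherwise gene body or flank. Shares have 95% Wilson intervals for counting error. With 1 library a clone, no test between conditions was made. Counting was tested on simulated tiles. Some values behind the coregulator counts are not reported here. Receptors and lists were chosen with earlier results of these data known. Genes were named by rule: ESR1, ESR2, PGR, NR3C1, NR3C2, RARA, RXRA, VDR, PPARG and HNF4A, the 6 largest promoter differences per table and direction, genes with shared tiles, the 3 genes with most tiles and those with none; other receptors were described after their values were seen. Alternatives were stricter thresholds, other windows, transcripts and classes. Scripts ran under Python 3.11.15 with pandas 2.3.3, numpy 2.4.6, matplotlib 3.10.9 and scipy 1.17.1.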

Additional observations from a re-analysis of the deposited data

Results flagged for a closer look

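At 10 tiles the single comparisons, which share no library, had opposite signs, if the knockout table was subtracted in the order used here. Were that order turned, these 10 would have the same sign and the other 15 shared tiles opposite ones. With 1 library a clone, the difference between the comparisons was not tested at any of them, and a q-value over reads does not bear on it. The values are given in percentage points, knockdown before knockout comparison.

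In promoters, NR1D1, a repressor of the circadian clock, had 58.2 and -93.8 in chr17:38258001-38259000, 1159 bp upstream of its TSS. NR5A1 had 82.6 and -34.5 in chr9:127268001-127269000, and RXRA had 85.4 and -25.1 in chr9:137270001-137271000 at its internal start. The HNF4A tile chr20:43027001-43028000 had 36.8 and -42.7, in a gene with no other hypomethylated tile in any table.

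In gene bodies, RARA had -66.7 and 38.7 in chr17:38492001-38493000 and ESRRG -42.1 and 43.6 in chr1:217046001-217047000. NR1H2 had -51.5 and 30.0 in chr19:50836001-50837000. RXRA had -33.8 and 27.0 in chr9:137267001-137268000, 3 kb before the tile named above, where the signs were the other way round. ESRRB had 32.6 and -26.6 in chr14:76917001-76918000. PGR had -25.5 and 47.6 in chr11:100941001-100942000, with 43.7 in the mix, the only one of these 10 tiles that the mix listed.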

How the results depend on the processing

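Of 91 alternative values, 75 stayed within 1.5 times the reported count or within the reported share's interval. Only the threshold of 50 points, the stricter q-value, the narrower promoter, the wider set of transcripts and the other classes moved any; windows without flanks, an overlap of 500 bp, leaving out differences of 100 points or tiles near other genes' promoters, and counting neighbouring tiles as shared moved none. A value that stayed by this rule could still differ, as the interval of the same-sign share is wide. Without differences of 100 points, 21 tiles were shared and 52.4% had the same sign, instead of 60.0% of 25. The share over all gene windows, with those differences kept, was 52.7%. Counting neighbouring tiles gave 35 shared tiles, 60.0% with the same sign. At 50 points or more, the knockdown comparison, the knockout comparison and the mix kept 87, 25 and 15 tiles, and 12, 5 and 2 genes with a promoter tile. The genes with a tile were then 17 in the knockout comparison and 11 in the mix, 33.3% of the tiles in the mix were hypermethylated, and 5 tiles were shared, 80.0% with the same sign. At a q-value of at most 1e-10, the knockout comparison had 55 tiles and 15 were shared. With promoters of 1 kb, 7 genes had a promoter tile in the knockout comparison, and with all transcripts 14 in the mix. With VDR moved to the steroid class and the HNF4 genes to the orphans, 25% of the metabolic tiles of the knockdown comparison were hypermethylated. The tables set the limits: they hold neither read counts nor levels, so no minimum coverage could be varied and no library left out. No paired analysis was possible because each group is 1 library and the tables hold only differences between groups.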

Other observations

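The mix listed 64 receptor tiles, of which 59 had the sign of the single comparisons that listed them. At RXRA the tile chr9:137208001-137209000, upstream of the canonical TSS, stood at 29.2 points in the knockdown comparison but at -50.0 in the mix, and a nearby tile, chr9:137211001-137212000, was listed in the mix alone at -44.2 points. An intronic NR4A1 tile, chr12:52438001-52439000, gave 31.3 points in the knockdown comparison and -29.5 in the mix. An exonic NR5A1 tile, chr9:127255001-127256000, appeared in the mix alone at 32.0 points. With no levels in the tables, these values could not be traced to a library.

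Of the 239 receptor tiles, 24 had no CpG in reach of MspI fragments of 40 to 220 bp, among them the RORA tiles chr15:61090001-61091000 at 97.1 points and chr15:61264001-61265000 at 100 points and the NR6A1 tile chr9:127299001-127300000 at -100 points, each in the knockdown comparison. Several tiles described above were also among the 24. These included chr9:137271001-137272000 at the internal start of RXRA and the HNF4A tile chr20:42994001-42995000. The HNF4G promoter tile chr8:76322001-76323000, the THRB tile chr3:24424001-24425000 and the PGR tile chr11:100941001-100942000 were others. A further count concerns neighbours: 14 receptor tiles lay within 2 kb of a TSS of another protein-coding gene, 4 of them in the window of NR1H2.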
